A study of Homo sapiens with 20 samples.

Results

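The 34 genes described here belong to the Fanconi anaemia pathway, homologous recombination and mismatch repair, out of 58787 genes in the deposited count table. Each is the table entry whose Ensembl identifier maps to a listed gene symbol; the rule uses no measured value, although the list was drawn up with earlier results of these data known. The list holds 11 Fanconi genes, 15 recombination genes, 5 helicase genes (BLM and its partners, WRN and RECQL) and 3 mismatch repair genes. All 34 passed the filter on low counts that left 13729 genes for testing.

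The cells were IMR-32, an established human neuroblastoma line with amplified MYCN, and 4 libraries were made for each of 5 groups. All cells were wild type and were exposed for 24 h to the solvent DMSO, to 1 µM Dyngo-4a (called the low dose here), to 2.26 µM Dyngo-4a (called the high dose), to 2 nM prexasertib, or to both agents in combination. For the combination, the sources used here give no doses. Dyngo-4a is an inhibitor of the membrane-scission GTPase dynamin, and prexasertib inhibits the checkpoint kinase CHK1. RNA was read by 3′ mRNA sequencing, which counts reads near the 3′ end of each transcript, and the design compares each agent, and both together, with the solvent. The labels do not say whether libraries of 1 group stem from separate cultures; if not, the p-values reflect technical spread alone.

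The Fanconi core complex is a ubiquitin ligase that, with its conjugating enzyme UBE2T, marks the FANCD2-FANCI pair at DNA crosslinks and stalled replication forks. Homologous recombination then repairs the break: RBBP8 and the NBN-RAD50 complex open the ends, BRCA1-BARD1, PALB2 and BRCA2 load the recombinase, and BLM with RMI1 and RMI2 takes joined molecules apart. Mismatch repair removes copying errors: MSH6 is part of a heterodimer that recognises the mismatch, PMS2 belongs to the complex that nicks the strand, and EXO1 digests it. Many of these genes are transcribed most in S phase, when their products act at replication forks.

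Promoters are shown for MSH6, EXO1, BARD1, RBBP8 and BLM, which were lower in the combination, and for FANCE and RMI1, which changed in opposite directions at the high dose. BRCA1, NBN, FANCL, UBE2T and RAD50 also changed against DMSO but are not shown, and NBN has no window in the table used. Each window, from RefSeq on GRCh38.p14, runs from 250 bases before to 50 bases after a RefSeq start site, the one furthest upstream where the table lists several, 5′ to 3′ on the gene's own strand. The GENCODE 29 gene models of MSH6 (from base 47695530) and RBBP8 (from base 22798261) begin further upstream, outside these windows. That of RMI1 (from base 83980711) begins downstream of the end of its window. Capitals mark 2 kinds of letters found by search: an E2F-type pattern (TTTGGCGC, TTTCCCGC, TTTGCCGC or TTTCGCGC) and CCAAT, each on either strand, so that ATTGG is CCAAT read on the other strand. The windows are chr2:47782895-47783194 (plus strand) for MSH6, chr1:241847954-241848253 (plus) for EXO1, chr2:214809634-214809933 (minus) for BARD1, chr18:22933078-22933377 (plus) for RBBP8, chr15:90717096-90717395 (plus) for BLM, chr6:35452088-35452387 (plus) for FANCE and chr9:83980109-83980408 (plus) for RMI1.
MSH6: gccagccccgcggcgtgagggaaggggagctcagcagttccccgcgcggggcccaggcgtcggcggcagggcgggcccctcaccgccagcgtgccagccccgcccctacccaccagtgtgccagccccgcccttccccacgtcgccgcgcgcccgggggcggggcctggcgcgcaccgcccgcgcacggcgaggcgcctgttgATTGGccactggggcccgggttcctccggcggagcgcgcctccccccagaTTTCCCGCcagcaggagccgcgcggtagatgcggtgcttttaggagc
EXO1: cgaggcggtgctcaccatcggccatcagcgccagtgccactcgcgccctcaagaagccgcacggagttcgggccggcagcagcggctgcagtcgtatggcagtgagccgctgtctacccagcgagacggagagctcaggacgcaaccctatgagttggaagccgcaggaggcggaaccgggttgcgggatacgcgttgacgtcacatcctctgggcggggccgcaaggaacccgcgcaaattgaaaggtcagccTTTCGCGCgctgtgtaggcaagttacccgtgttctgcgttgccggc
BARD1: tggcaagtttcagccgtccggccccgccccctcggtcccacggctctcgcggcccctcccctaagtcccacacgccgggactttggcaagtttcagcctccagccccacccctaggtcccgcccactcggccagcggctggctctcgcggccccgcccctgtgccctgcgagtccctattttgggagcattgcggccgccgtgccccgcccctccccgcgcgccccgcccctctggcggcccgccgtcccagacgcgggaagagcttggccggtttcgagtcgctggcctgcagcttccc
RBBP8: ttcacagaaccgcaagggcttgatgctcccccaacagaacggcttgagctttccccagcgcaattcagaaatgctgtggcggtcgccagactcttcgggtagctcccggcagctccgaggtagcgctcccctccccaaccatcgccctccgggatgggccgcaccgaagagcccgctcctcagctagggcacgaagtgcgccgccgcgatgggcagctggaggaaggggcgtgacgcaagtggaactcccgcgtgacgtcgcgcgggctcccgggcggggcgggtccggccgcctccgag
BLM: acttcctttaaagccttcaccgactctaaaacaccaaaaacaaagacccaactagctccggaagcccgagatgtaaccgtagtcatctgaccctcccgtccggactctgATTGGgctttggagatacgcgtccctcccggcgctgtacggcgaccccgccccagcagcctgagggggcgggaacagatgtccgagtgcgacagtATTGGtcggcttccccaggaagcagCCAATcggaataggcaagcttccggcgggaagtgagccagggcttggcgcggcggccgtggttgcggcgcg
FANCE: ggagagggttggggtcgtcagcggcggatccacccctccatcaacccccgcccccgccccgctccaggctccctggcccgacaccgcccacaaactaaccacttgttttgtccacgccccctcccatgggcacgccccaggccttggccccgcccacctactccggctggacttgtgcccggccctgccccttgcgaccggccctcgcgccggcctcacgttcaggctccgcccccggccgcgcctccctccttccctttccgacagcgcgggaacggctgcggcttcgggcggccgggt
RMI1: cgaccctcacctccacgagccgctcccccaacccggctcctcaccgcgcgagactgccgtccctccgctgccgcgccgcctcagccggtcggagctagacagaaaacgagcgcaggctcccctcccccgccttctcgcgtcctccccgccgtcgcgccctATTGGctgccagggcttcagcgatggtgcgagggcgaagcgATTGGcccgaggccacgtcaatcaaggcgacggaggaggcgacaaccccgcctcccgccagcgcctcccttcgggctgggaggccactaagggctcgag
The MSH6 window holds TTTCCCGC from base 4 and EXO1 holds TTTCGCGC from base 5, counting the start site as base 1. MSH6 also holds CCAAT once, BLM holds it 3 times and RMI1 2 times, whereas the BARD1, RBBP8 and FANCE windows hold neither pattern. Windows were found for 29 of the 34 members. Of these 29, 7 (EXO1, FANCA, FANCC, FANCD2, MSH6, PMS2 and XRCC2) hold the E2F-type letters, which is 24.1%, against 3.34% of all 27305 gene windows. CCAAT occurs in 14 of the 29, against 35.7% of all windows. The cell cycle pattern TTTGAA or TTCGAA, also searched on both strands, occurs in 3 of the 29 (BRIP1, FANCC and UBE2T), against 16.7% of all windows. None of the 3 patterns contains another. Among the 6 genes lower in the combination that have a window, 2 hold the E2F-type letters, 2 hold CCAAT and 0 hold TTTGAA or TTCGAA. A match is a string of letters only and was not tested for binding.

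Library totals ran from 3960885 to 6537843 counts, and no member was at 0 in any library. The lowest count of a member in a library was 10 (RAD54B). As a check of the cell type, 14 adrenergic neuroblast markers together reached 5919 to 6718 CPM (counts relative to the library total, with TMM factors for RNA composition) in the 20 libraries, with none at 0 in any group. A list of 12 Schwann or mesenchymal markers reached 276 to 377 CPM, with 2 to 4 of them at 0 in a group. A list of 8 immune or endothelial markers reached at most 4.88 CPM.

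In the combination 7 of the 34 genes fell relative to DMSO and 0 rose, led by MSH6, BARD1, RBBP8 and EXO1. That is 20.6% of the members, against 2.83% of all tested genes called lower and 3.47% called higher; a gene was called at an adjusted p below 0.05 in edgeR's quasi-likelihood test. The median log2 fold change of the 34 members was -0.25, against 0.00 over all tested genes, and 28 of the 34 values were negative. By subgroup, 2 of 3 mismatch repair genes, 4 of 15 recombination genes, 1 of 5 helicase genes and 0 of 11 Fanconi genes fell. The subgroup medians were -0.44, -0.34, -0.36 and -0.17 in that order. The mismatch repair median rests on 3 genes, and 7 other genes of that pathway had a median of 0.04, with 1 called lower. The differences between subgroups were not tested. Less RNA per cell and fewer cells in the phase that makes it cannot be told apart in these bulk samples.

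At the high dose of Dyngo-4a 4 members fell (RMI1, UBE2T, FANCL and EXO1) and 2 rose (FANCE and RAD50). The lower calls are 11.8% of the members against 12.7% of all tested genes, and the higher calls are 5.88% against 12.5%, so the members were called about as often as other genes or less. Their median log2 fold change was -0.04. The nuclear RNA MALAT1 rose at this dose by 1.13 ± 0.23 (adjusted p = 0.00142), from 0.941% to 1.76% of all counts in the DMSO libraries to 2.80% to 3.15% at the high dose, and NEAT1 had a value of 0.72 ± 0.29 (adjusted p = 0.0676). Of 14 DNA replication genes 9 fell and 1 rose there (median -0.32), and of 16 mitosis genes 3 fell and 0 rose (median -0.18). The part of these shifts in the members' changes was not tested. EXO1 was the 1 member called both at the high dose and in the combination. These comparisons share the DMSO libraries.

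At the low dose 0 members were called in either direction by edgeR, DESeq2 or limma-voom, against 0.182% of all tested genes higher and 0.0801% lower. An unadjusted edgeR p below 0.05 was found for 5 members and for 1039 of all 13729 tested genes. With the replicate number as a block, NBN alone was called, at -0.30 (adjusted p = 0.0313), where 1.01% of all tested genes were lower. Under prexasertib alone 0 members were called by the same 3 tools, and edgeR called 0% of all tested genes higher and 0% lower (518 genes had an unadjusted p below 0.05, DESeq2 called 6 and limma-voom 0). Even so, 28 of the 34 values were negative, with a median of -0.16 against a median of 0.00 over all tested genes, and 8 had an unadjusted p below 0.05. With the block, BRCA1 alone was called under prexasertib, at -0.33 (adjusted p = 0.0107), where 0.0583% of all tested genes were lower. Over all 5 groups together, 15 of the 34 members varied, which is 44.1% against 27.7% of all tested genes.

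**Figure D1:**
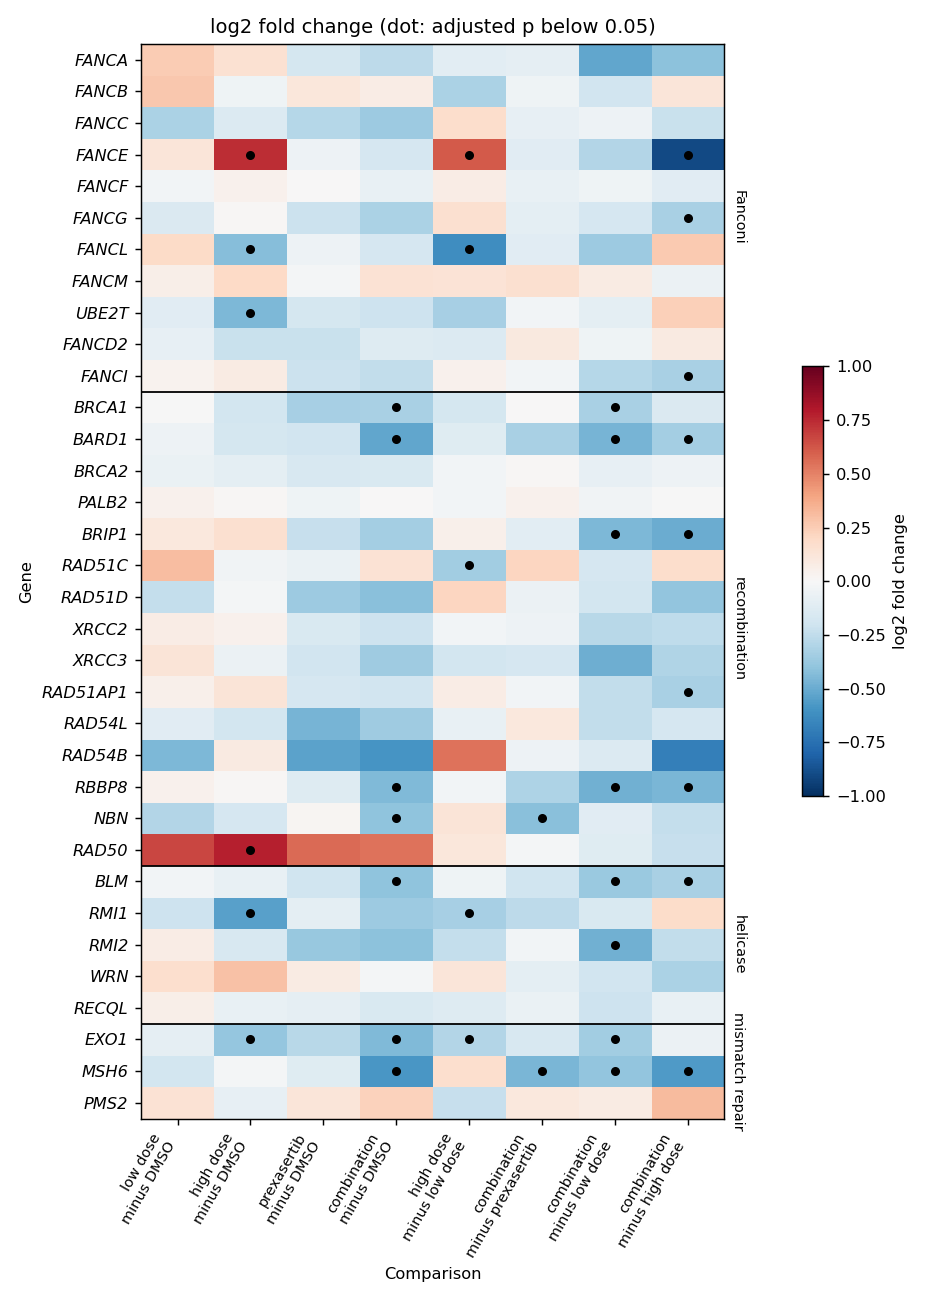
Colour gives the log2 fold change of each of the 34 genes (vertical axis, in their 4 subgroups) in 8 comparisons (horizontal axis), and a black dot marks an edgeR adjusted p below 0.05. The combination minus DMSO column holds 7 dots, all on negative values, while the low dose and prexasertib columns hold 0.

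**Figure D2:**
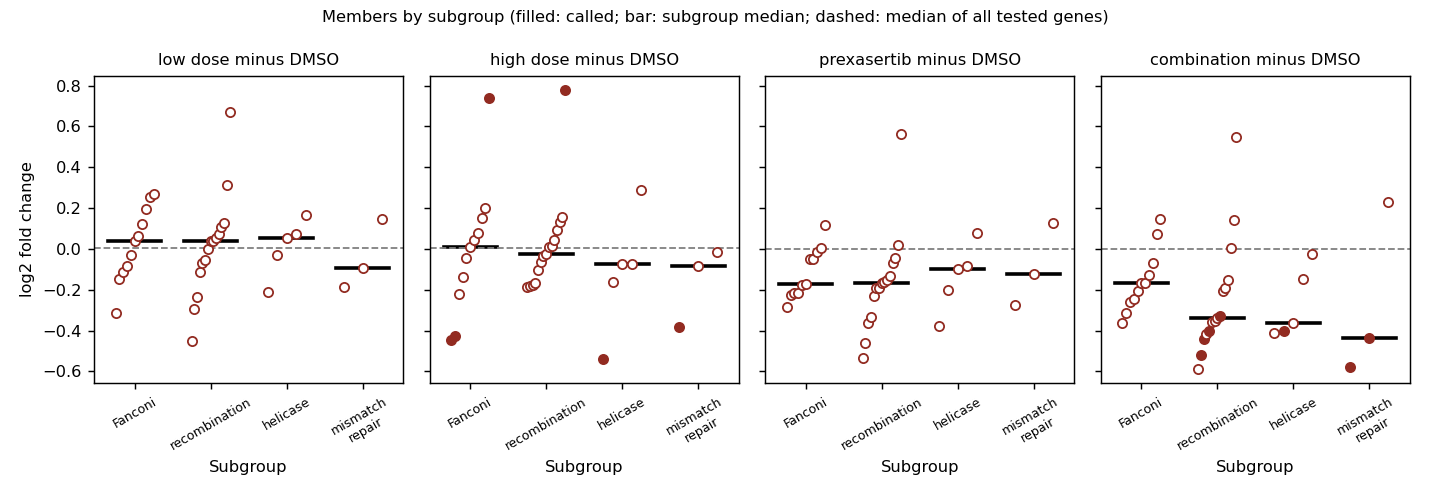
Each point is a gene's log2 fold change against DMSO (vertical axis) in its subgroup (horizontal axis), filled where called, with a bar at the subgroup median and a dashed line at the median of all tested genes. In the combination the bars of all 4 subgroups lie below the dashed line, from -0.17 for Fanconi to -0.44 for mismatch repair.

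MSH6, the mismatch-recognition subunit, was lower in the combination than in any other group. Its level was 235, 215, 196 and 233 CPM in the DMSO libraries and 143, 158, 129 and 157 CPM in the combination. It was 184, 208, 182 and 199 CPM at the low dose, 206, 212, 217 and 234 CPM at the high dose, and 208, 217, 185 and 199 CPM under prexasertib. The 4 combination libraries all lie below each of the other 16. The log2 fold change of the combination was -0.58 ± 0.09 (SE, n = 4 per group, edgeR adjusted p = 1.75e-05) against DMSO. It was -0.56 ± 0.09 against the high dose (adjusted p = 1.42e-05), -0.46 ± 0.09 against prexasertib (adjusted p = 0.00101) and -0.40 ± 0.09 against the low dose (adjusted p = 0.00448). None of the single agents gave a called change of MSH6, with -0.18 at the low dose, -0.02 at the high dose and -0.12 under prexasertib. MSH6 lies on chromosome 2 at 47695530 to 47810101 (GENCODE 29, GRCh38), and its 3′ end overlaps FBXO11 on the opposite strand. No source used here says whether counting used strand; FBXO11 changed by 0.08 in the combination (adjusted p = 0.705).

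EXO1, the exonuclease that works in both mismatch repair and the resection of breaks, fell both in the combination and at the high dose. It stood at 80.3, 77.7, 80.0 and 67.7 CPM in DMSO, at 59.6, 51.9, 58.9 and 63.9 CPM at the high dose and at 63.5, 58.9, 54.5 and 48.8 CPM in the combination. Neither treated group overlaps DMSO. The log2 fold change was -0.38 ± 0.10 at the high dose (SE, n = 4 per group, edgeR adjusted p = 0.00448), and the combination gave -0.44 ± 0.10 (adjusted p = 0.00524). Under prexasertib alone its value was -0.27 ± 0.10 (adjusted p = 1.00), with libraries at 63.4, 67.4, 66.6 and 55.3 CPM that also all lie below those of DMSO. PMS2, at 5.17 to 9.53 CPM over the 20 libraries, was called in no comparison, and its reads can be shared with closely similar pseudogene copies.

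The ubiquitin ligase pair BRCA1 and BARD1 fell together in the combination, and both lay below DMSO in all 4 combination libraries. BRCA1 stood at 237, 230, 263 and 233 CPM in DMSO and at 187, 185, 205 and 192 CPM in the combination, with no overlap. Its log2 fold change was -0.33 ± 0.09 (SE, n = 4 per group, edgeR adjusted p = 0.0207). Under prexasertib alone BRCA1 stood at 189, 192, 212 and 172 CPM, again below every DMSO library, and its log2 fold change was also -0.33 ± 0.09 but missed the threshold over all genes (adjusted p = 0.597). The combination differed from prexasertib by 0.01 in BRCA1, with an interval of 2 SE on either side from -0.18 to 0.19. BRCA1 overlaps other annotated genes, among them the RNA AC060780.1 on the same strand, and reads could be split between them. The BRCA1 call in the combination was lost without DMSO library 3 (adjusted p = 0.0812), combination library 1 (0.0624) or combination library 2 (0.0581).

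BARD1 stood at 55.2, 72.5, 79.4 and 66.0 CPM in DMSO and at 51.0, 43.4, 46.8 and 49.3 CPM in the combination. The groups do not overlap, although the lowest DMSO library is close to the highest combination library. Its log2 fold change was -0.52 ± 0.11 (SE, n = 4 per group, edgeR adjusted p = 0.00306), and the value under prexasertib was -0.19 ± 0.11 (adjusted p = 1.00). Among the partners that act after BRCA1, PALB2 and BRCA2 were called in no comparison. BRIP1, a helicase that binds BRCA1, had a value of -0.34 ± 0.12 against DMSO (adjusted p = 0.0735). Some other edgeR fits called BRIP1 lower there: with no filter on low counts (adjusted p = 0.0347), with the replicate block (0.00128) and without combination library 1 (0.00875). It fell in the combination relative to the high dose, at -0.50 ± 0.11 (adjusted p = 0.00169), and relative to the low dose, at -0.45 ± 0.12 (adjusted p = 0.0166). The last call was lost without low-dose library 1, combination library 2 or combination library 4 (adjusted p = 0.0816, 0.0907 and 0.0962). It was kept with the replicate number as a block (edgeR adjusted p = 2.44e-05).

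The genes for opening DNA ends followed different patterns. RBBP8, also called CtIP, which starts resection, stood at 91.7, 110, 104 and 99.6 CPM in DMSO and at 72.1, 79.9, 65.8 and 80.1 CPM in the combination, a log2 fold change of -0.44 ± 0.10 (SE, n = 4 per group, edgeR adjusted p = 0.00637). Every combination library lies below every DMSO library, and RBBP8 was also lower than at the low dose, at -0.48 ± 0.10 (adjusted p = 0.00300), and than at the high dose, at -0.45 ± 0.10 (adjusted p = 0.00163). NBN, a subunit of the complex that senses broken ends, stood at 109, 122, 109 and 110 CPM in DMSO, at 112, 125, 120 and 99.6 CPM under prexasertib and at 80.8, 87.0, 84.9 and 87.6 CPM in the combination. The combination libraries lie below those of both other groups. NBN fell by 0.40 ± 0.10 relative to DMSO (adjusted p = 0.00727) and dropped by 0.42 ± 0.10 relative to prexasertib (adjusted p = 0.00737). At the low dose NBN stood at 77.3, 101, 98.9 and 90.0 CPM, also below DMSO in every library, with a value of -0.29 ± 0.10 that missed the threshold (adjusted p = 0.366). Between the combination and the low dose the NBN difference was -0.11 (adjusted p = 0.679), with an interval of 2 SE on either side from -0.31 to 0.09.

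RAD50, the partner of NBN, was the recombination gene that rose at the high dose. It stood at 4.57, 4.26, 5.84 and 3.20 CPM in DMSO and at 6.51, 6.12, 12.0 and 5.91 CPM at the high dose, a log2 fold change of 0.78 ± 0.26 (SE, n = 4 per group, edgeR adjusted p = 0.0242). High-dose library 3 is far above the other 3, and without it the value was 0.48 and no longer called (adjusted p = 0.204). The call was also lost without DMSO library 2 (adjusted p = 0.0501) or DMSO library 4 (0.0999). The other treated groups gave values of 0.67 ± 0.26 (low dose, adjusted p = 0.499), 0.56 ± 0.26 (prexasertib, adjusted p = 1.00) and 0.55 ± 0.27 (combination, adjusted p = 0.247), none of them called. RAD50 had 679 counts in all 20 libraries together, and its 3′ end is shared with a longer readthrough transcript.

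Among the strand-exchange helpers 2 were called in a comparison. RAD51C fell between the low and the high dose, at -0.35 ± 0.11 (edgeR adjusted p = 0.0279), a call lost without 4 of the 8 libraries taken 1 at a time: low-dose libraries 1 and 4 (adjusted p = 0.0566 and 0.139) and high-dose libraries 1 and 3 (0.0971 and 0.1253). RAD51AP1, a cofactor of the recombinase, was lower in the combination than at the high dose, at -0.32 ± 0.09 (adjusted p = 0.00925), and this was lost without combination library 4 (adjusted p = 0.0521). The replicate block kept these calls of RAD51C and RAD51AP1 (edgeR adjusted p = 0.00306 and 0.000336). In the main fit, with all 20 libraries and no replicate block, RAD51D, XRCC2, XRCC3, RAD54L and RAD54B were called in no comparison. Their values in the combination against DMSO were negative. They were -0.42 ± 0.21 for RAD51D (adjusted p = 0.270), -0.21 ± 0.12 for XRCC2 (0.340), -0.36 ± 0.16 for XRCC3 (0.211) and -0.35 ± 0.16 for RAD54L (0.212). Some are as large as the called change of BRCA1, with larger errors. RAD54B had the lowest value of all members in the combination, -0.59 ± 0.33 (adjusted p = 0.339), with 510 counts in the 20 libraries together. Its 3′ end overlaps FSBP on the same strand, which had 1619 counts, and reads could be split between them. The 3′ ends of XRCC3 and RAD54L overlap KLC1 and LRRC41 on the opposite strand. Leaving out high-dose library 4 gave a lower call of XRCC3 in the combination than at the high dose, at -0.47 (edgeR adjusted p = 0.0255). Leaving out combination library 3 did so for RAD54B, at -1.11 (adjusted p = 0.0200).

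**Figure D3:**
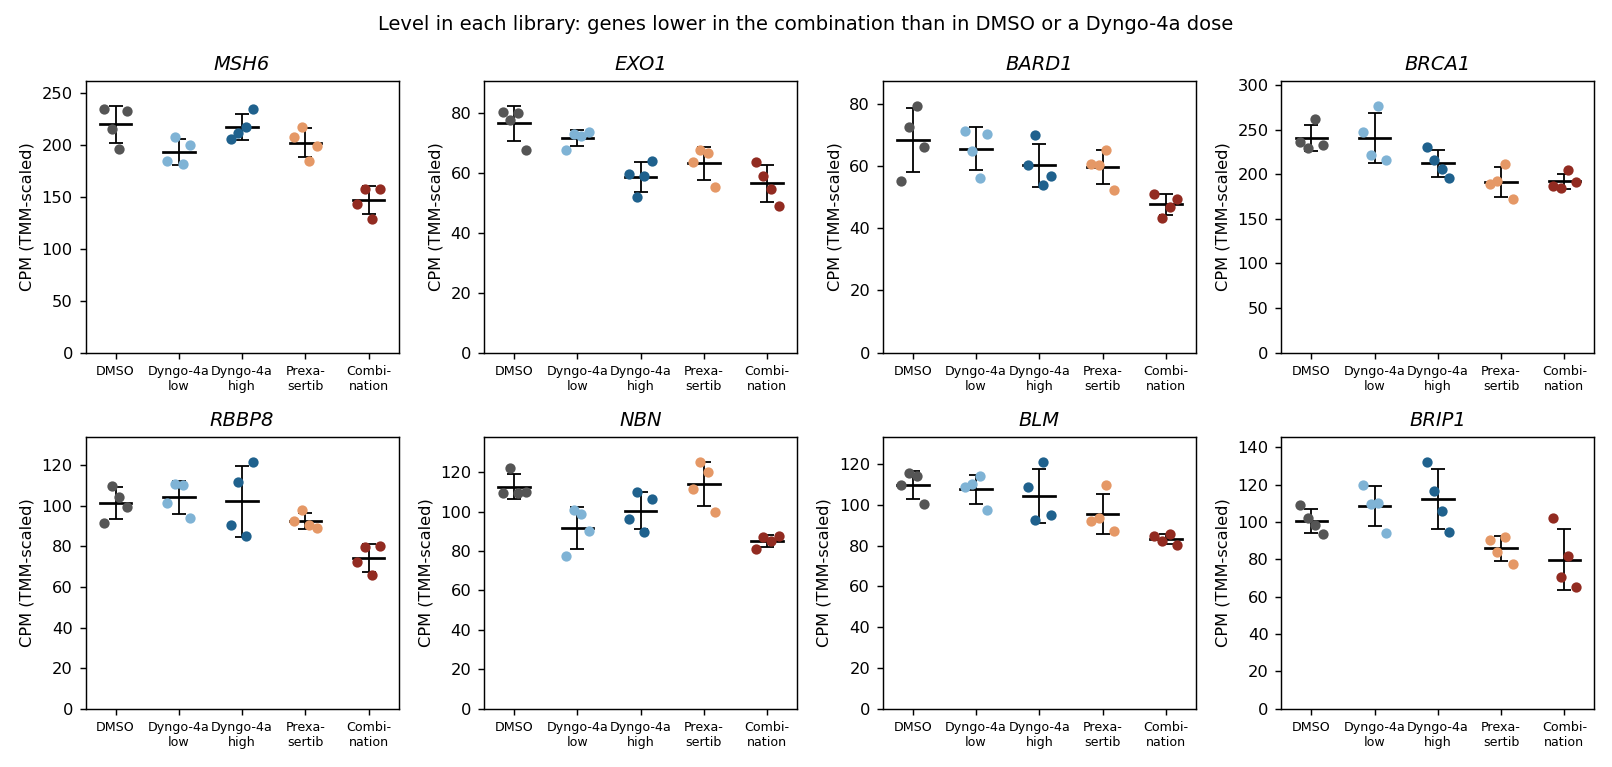
Points are single libraries, the horizontal bar is the group mean and the whiskers are 1 SD (n = 4); the vertical axis is CPM from 0 and the horizontal axis is the group. In MSH6 the 4 combination libraries (129 to 158 CPM) lie below all others, while in BRCA1 the combination libraries (185 to 205 CPM) lie within the range of the prexasertib libraries (172 to 212 CPM).

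Of the helicase group, BLM fell in the combination and its partner RMI1 fell at the high dose. BLM, which unwinds recombination intermediates, stood at 110, 116, 114 and 101 CPM in DMSO and at 85.0, 82.4, 85.6 and 80.1 CPM in the combination, a log2 fold change of -0.40 ± 0.10 (SE, n = 4 per group, edgeR adjusted p = 0.00727). The 4 combination libraries lie close together and below every DMSO library. RMI1, the scaffold of the BLM complex, stood at 51.6, 55.2, 54.0 and 51.4 CPM in DMSO and at 39.8, 38.4, 35.4 and 32.1 CPM at the high dose, a log2 fold change of -0.54 ± 0.12 (adjusted p = 0.000544). These groups do not overlap either. In the combination RMI1 stood at 41.1, 43.1, 44.3 and 36.8 CPM, also below every DMSO library, and its value of -0.36 ± 0.12 missed the threshold (adjusted p = 0.0522) but was called by DESeq2 (adjusted p = 0.0398). RMI2 was lower in the combination than at the low dose, at -0.48 ± 0.14 (adjusted p = 0.0396), a call lost in 6 of the 8 fits that each left out 1 library. It was kept with the replicate block (edgeR adjusted p = 0.00512). Against DMSO the RMI2 value in the combination was -0.41 ± 0.14, not called in the main fit but called with the block (adjusted p = 0.0173). WRN and RECQL were called in no comparison without the block.

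In the main fit 3 genes of the Fanconi group were called against DMSO at the high dose, 9.09% higher and 18.2% lower. The shares over all tested genes were 12.5% and 12.7%. In the combination 0 were called, against 3.47% of all tested genes higher and 2.83% lower. With the replicate block FANCG, at -0.32 (edgeR adjusted p = 0.0436), and FANCI, at -0.24 (adjusted p = 0.0240), were lower in the combination. At the high dose the block added FANCD2 at -0.22 (adjusted p = 0.0157). In both of these comparisons same-numbered libraries did not all deviate together. FANCE, the core-complex subunit that contacts FANCD2, stood at 16.2, 14.5, 14.7 and 12.2 CPM in DMSO and at 22.7, 27.6, 22.9 and 22.7 CPM at the high dose, a log2 fold change of 0.74 ± 0.17 (SE, n = 4 per group, edgeR adjusted p = 0.00103). All 4 high-dose libraries lie above those of every other group. The low dose gave 14.5, 14.4, 18.3 and 15.6 CPM, prexasertib 14.9, 10.4, 12.3 and 17.5 CPM and the combination 9.54, 14.99, 12.7 and 13.6 CPM. FANCE was higher at the high than at the low dose by 0.61 ± 0.17 (adjusted p = 0.00675), and lower in the combination than at the high dose, at -0.90 ± 0.17 (adjusted p = 0.000146).

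The catalytic pair of the pathway moved the other way. FANCL, the ligase subunit, stood at 39.8, 39.4, 50.2 and 43.9 CPM in DMSO and at 37.3, 32.8, 31.6 and 27.3 CPM at the high dose, without overlap, a log2 fold change of -0.43 ± 0.12 (SE, n = 4 per group, edgeR adjusted p = 0.00705). At the low dose it stood at 46.0, 53.3, 54.7 and 44.3 CPM, and it was lower at the high than at the low dose, at -0.62 ± 0.12 (adjusted p = 0.000200). The 3′ end of FANCL overlaps VRK2 on the opposite strand, which changed by -0.25 at the high dose (adjusted p = 0.624). UBE2T, the conjugating enzyme, stood at 129, 152, 139 and 173 CPM in DMSO and at 107, 91.5, 106 and 131 CPM at the high dose, a log2 fold change of -0.45 ± 0.13 (adjusted p = 0.0135). The UBE2T groups overlap by 1 high-dose library, and the call was lost without DMSO library 4 (adjusted p = 0.0721) or high-dose library 2 (0.0606).

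FANCD2, the substrate of that pair, was called in no comparison of the main fit. Without high-dose library 1 it was called lower at the high dose than in DMSO, at -0.29 (edgeR adjusted p = 0.0378). With a term for libraries 1 and 3 against 2 and 4 the value was -0.22 (adjusted p = 0.0418). It stood at 133, 134, 129 and 110 CPM in DMSO, 128, 123, 114 and 111 CPM at the low dose and 125, 104, 112 and 93.4 CPM at the high dose. Under prexasertib it stood at 113, 107, 112 and 99.5 CPM and in the combination at 129, 120, 117 and 97.0 CPM. All 5 groups overlap, and the log2 fold changes against DMSO ran from -0.23 ± 0.10 (prexasertib) to -0.08 ± 0.10 (low dose). FANCI and FANCG were lower in the combination than at the high dose, at -0.32 ± 0.10 (edgeR adjusted p = 0.0159) and -0.33 ± 0.12 (adjusted p = 0.0455). The FANCI call was lost without high-dose library 3 (adjusted p = 0.0571) or combination library 1 (0.0545), and the FANCG call was lost in 6 of 8 such fits. The replicate block kept the FANCI and FANCG calls (edgeR adjusted p = 0.000613 and 0.0179). The 3′ end of FANCI overlaps POLG on the opposite strand, whose own value in that comparison was 0.18 (adjusted p = 0.417). FANCA, FANCB, FANCC, FANCF and FANCM were called in no comparison of the main fit, and they are among 16 members of which that holds. With no filter on low counts, FANCA was called lower in the combination than at the low dose, at -0.52 (edgeR adjusted p = 0.0264). The same fit called it lower than at the high dose, at -0.44 (adjusted p = 0.0396). The 3′ end of FANCA overlaps ZNF276 on the opposite strand. With the replicate number as a block, 4 of these 16 were lower in comparisons whose numbers pair the libraries: FANCA in the combination against the low dose, at -0.51 (adjusted p = 0.00336), and against the high dose, at -0.40 (adjusted p = 0.0109), XRCC2 in both of these, XRCC3 against the low dose and WRN against the high dose.

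**Figure D4:**
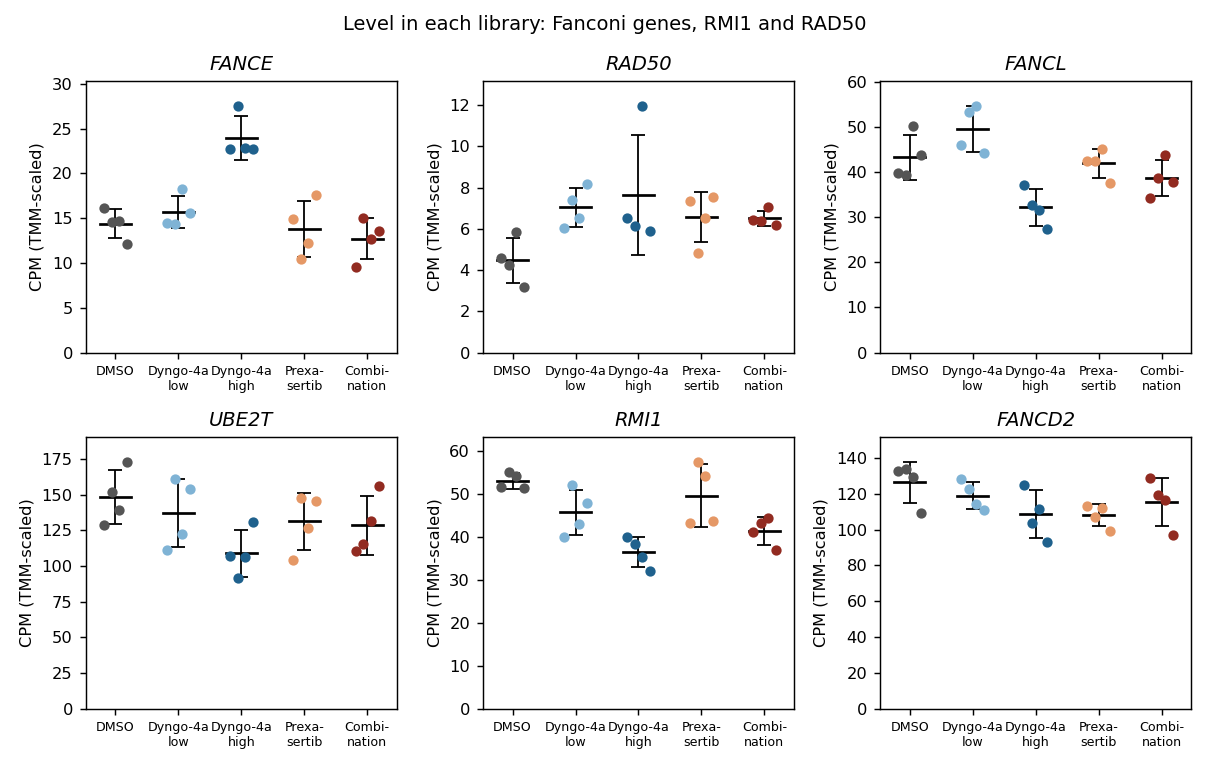
Points are single libraries, the horizontal bar is the group mean and the whiskers are 1 SD (n = 4); the vertical axis is CPM from 0 and the horizontal axis is the group. FANCE is higher and RMI1 lower in all 4 high-dose libraries than in DMSO, and FANCD2 overlaps in all groups.

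Set against the single agents, the combination gave 26, 32 and 27 negative values of 34 (prexasertib, low dose and high dose). The medians were -0.06, -0.20 and -0.24 in that order, and 0 members were called higher in the main fit. Over all tested genes 48.6%, 50.7% and 48.6% of values were negative. Against prexasertib 2 members fell, MSH6 and NBN, or 5.88%, against 1.04% of all tested genes lower and 2.4% higher. With the replicate number as a block this became 4, by adding BARD1 at -0.32 (adjusted p = 0.0313) and RBBP8 at -0.31 (adjusted p = 0.0113), while the lower calls over all tested genes rose to 4.95%. Against the low dose 8 members fell (MSH6, RBBP8, BARD1, BRIP1, BLM, RMI2, EXO1 and BRCA1), or 23.5%, against 1.14% of all tested genes lower and 2.7% higher. With the block 14 fell, and the lower calls over all tested genes rose to 3.93%. Without the block, only MSH6 and RBBP8 kept this call in each of the 8 fits that left out 1 library. The count was 3 without low-dose library 1, 5 without low-dose library 2 or 3, 2 without combination library 2 and 4 without combination library 4.

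Against the high dose 9 members fell (FANCE, MSH6, BRIP1, RBBP8, BARD1, FANCG, BLM, FANCI and RAD51AP1), or 26.5%, against 10.1% of all tested genes lower and 10.4% higher. With the block the count was 14, of which 13 were lower and 1, UBE2T at 0.23 (adjusted p = 0.0258), was higher, while over all tested genes 14.3% were lower and 14.8% higher. Between the Dyngo-4a doses 1 member rose (FANCE) and 4 fell (FANCL, RAD51C, RMI1 and EXO1) from low to high, or 2.94% and 11.8%, against 10.1% of all tested genes higher and 10.1% lower. With the block 7 members were called, 1 higher and 6 lower, where 1941 of all tested genes were higher and 2039 lower. The block added UBE2T at -0.33 (edgeR adjusted p = 0.00122) and BRCA1 at -0.17 (adjusted p = 0.0459). RMI1 and EXO1 kept their calls with the block (adjusted p = 0.0111 and 0.0113). Without the block, the calls of RMI1 and EXO1 were lost in 5 and 6 of the 8 fits that left out 1 library. The count of 5 became 3 without low-dose library 2, high-dose library 1 or high-dose library 2, and 2 without low-dose library 4 or high-dose library 3.

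The test of whether the combination differed from the sum of the low dose and prexasertib, which assumes those doses inside it, called 0 members by edgeR, DESeq2 or limma-voom, with 2 at an unadjusted p below 0.05. Over all 13729 tested genes 0.27% were higher and 0.0146% lower than the sum, and 900 had an unadjusted edgeR p below 0.05. For MSH6 the departure from the sum was -0.28 ± 0.13 (edgeR adjusted p = 0.683), and for RBBP8 it was -0.35 ± 0.15 (adjusted p = 0.611), with an interval of 2 SE on either side from -0.64 to -0.06.

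Other genes of the same pathways were followed on lists of 52, of which 50 were tested. At the high dose 5 rose and 7 fell, which is 10% and 14%, near the 12.5% and 12.7% of all tested genes. Those that fell included 3 proteins that bind the Fanconi core complex or anchor it to DNA: CENPS at -1.23 ± 0.25 (edgeR adjusted p = 0.000374), FAAP24 at -0.93 ± 0.23 (adjusted p = 0.00245) and FAAP100 at -0.84 ± 0.20 (adjusted p = 0.00198). Those that rose included WDR48, a cofactor of the enzyme that removes the ubiquitin mark, at 0.45 ± 0.10 (adjusted p = 0.000678), and RAD52, an annealing protein, at 0.96 ± 0.29 (adjusted p = 0.0165). In the combination 3 (6%) fell, against 2.83% of all tested genes, and 0 rose: the ubiquitin ligase RFWD3 at -0.68 ± 0.16 (adjusted p = 0.00830), the helicase RECQL4 at -0.53 ± 0.12 (adjusted p = 0.00577) and the clamp-loader subunit RFC1 at -0.27 ± 0.08 (adjusted p = 0.0498). The list's median in the combination was -0.08. By subgroup it was 0.04 for 7 mismatch repair genes, -0.10 for 20 recombination genes, -0.19 for 9 helicase genes and -0.08 for 14 Fanconi genes. Those called lower numbered 1, 0, 1 and 1 in that order. At the low dose and under prexasertib 0 of the 50 were called. In the combination against the low dose, and against prexasertib, 0% of the 50 were called in either direction, with medians of -0.05 and -0.01. The lower calls of members in those comparisons thus had no counterpart on this list. Relative to the high dose 8% of the 50 were higher and 14% lower in the combination (median -0.09).

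Markers of cell cycle phase also changed in the combination. Of 14 DNA replication genes 12 fell (median -0.48) and 0 rose. Their summed level was 2740 to 3085 CPM in DMSO and 2033 to 2409 CPM in the combination. Of 16 mitosis genes 9 rose in the combination (median 0.32) and 0 fell, with a summed level of 7105 to 7706 CPM in DMSO and 9686 to 11160 CPM in the combination. The nuclear RNAs MALAT1 and NEAT1 both rose in the combination, by 0.80 ± 0.23 (edgeR adjusted p = 0.0439) and 1.38 ± 0.28 (adjusted p = 0.00241). The part of these shifts in the members' changes was not tested.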

How the data were processed

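RNA from 20 libraries, 4 in each of 5 groups, was measured with a 3′ mRNA kit with molecular barcodes, per the labels. The deposited values are raw counts for 58787 genes by Ensembl identifier. The submitters' processing notes name FastQC 0.11.7, STAR 2.7.2b, edgeR 3.36.0, limma 3.50.3 and GRCh38. Not given in the sources used here are the annotation release, the strand setting and any collapsing of barcodes; uncollapsed duplicates would make counts less independent. The members and gene lists were chosen with earlier results of these data known.

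All groups entered 1 edgeR 4.0.16 quasi-likelihood fit (R 4.3.3) with TMM factors of 0.968 to 1.03. The filter (a count of at least 10, total of at least 15) kept 13729 genes and 99.6% to 99.8% of counts. Benjamini-Hochberg adjustment ran over all tested genes, at a threshold of 0.05. The biological coefficient of variation was 12.5%. Levels are TMM-scaled CPM, and the interval of a difference is 2 SE on either side. Fits were tested on simulated data.

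All 34 members could be named. Values per library are given for members called against DMSO, and for BRCA1 and FANCD2. Other pathway genes could be named when called against DMSO, up to 6 in each direction. Same-numbered libraries deviated together (every correlation above 0.1) in the low dose and prexasertib comparisons with DMSO and in the 4 comparisons between treated groups, but not in the high dose or combination comparisons with DMSO, where the lowest r was 0.0271 and 0.0274. The numbers come from the sample titles.

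Alternatives were other scaling factors, other count filters, DESeq2 1.42.0, limma-voom 3.58.1, the groups compared alone, a replicate block, a term for libraries 1 and 3 against 2 and 4, each of those subsets alone, and each library left out. Promoter windows and coordinates came from RefSeq GRCh38.p14 and GENCODE 29, which held 58515 of the identifiers.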

Additional observations from a re-analysis of the deposited data

Results flagged for a closer look

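In 8 of 170 combinations of a member and a group, 1 library lay far from the other 3 (its gap to the nearest divided by the group's range was above Dixon's 95% critical value for 4 values); chance alone gives about 1 in 20 groups. The high ones were FANCE in high-dose library 2 at 27.6 CPM, FANCM in prexasertib library 1 at 39.5 CPM, XRCC2 in low-dose library 3 at 105 CPM, XRCC3 in DMSO library 1 at 26.1 CPM, NBN in DMSO library 2 at 122 CPM and RAD50 in high-dose library 3 at 12.0 CPM. The low ones were FANCG in low-dose library 3 at 32.0 CPM and FANCI in prexasertib library 2 at 106 CPM. Without high-dose library 3 the RAD50 call was lost (adjusted p = 0.204), whereas FANCE at the high dose and NBN in the combination were called in every fit that left out 1 library (highest adjusted p = 0.00722 and 0.0360).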

How the results depend on the processing

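The 37 calls, over 18 members, were each recomputed under 11 settings and with each library left out. Of 703 values, 585 stayed past the threshold, 118 did not and 0 changed sign. With the replicate block, the members called numbered 12 in the combination against DMSO, 14 against the high dose, 14 against the low dose, 4 against prexasertib, 1 at the low dose and 1 under prexasertib. Of all 13729 tested genes the block called 1976, 4002, 1149, 1374, 260 and 23 in the same order. The 12 members were all lower, where 1003 of all tested genes were lower. Same-numbered libraries did not meet the pairing rule for the high dose or the combination against DMSO; there, 2 of 4 and 3 of 4 pairs correlated best with their own number. The blocked count was 8 at the high dose and 7 between the doses, where 4721 and 3980 of all 13729 tested genes were called. In libraries 1 and 3 alone, with fewer samples, the counts were 3 at the high dose, 8 in the combination and 2 between the doses. For the combination they were 3 against the low dose and 5 against the high dose. These fits called 2230, 911, 1457, 485 and 1622 of all tested genes in the same order. Of the 8 in the combination 1 was higher, FANCM at 0.51 (edgeR adjusted p = 0.0393). In libraries 2 and 4 alone the member counts were 3 at the high dose, 3 in the combination, 0 against prexasertib, 1 against the low dose, 4 against the high dose and 7 over all groups. Those fits called 2221, 221, 104, 143, 1554 and 1898 of all tested genes in the same order. Between the doses the count was 3 with no filter and 3 with the groups compared alone. Leaving out 1 library gave 4 to 7 at the high dose, 6 to 8 in the combination, 2 to 5 between the doses, 14 to 17 over all groups, and 0 at the low dose, under prexasertib and for the departure from the sum; for the combination it gave 2 to 6 relative to the low dose, 7 to 10 relative to the high dose and 2 relative to prexasertib. A count of 0 allows up to 3 counts, which is 0.459 to 0.757 CPM, and limits counting error only.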

Other observations

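Libraries with the same number differed alike in several members, whatever the treatment. FANCA, a core-complex subunit, was higher in libraries 1 and 3 than in libraries 2 and 4 in all 5 groups, for example at 31.8 and 32.0 CPM against 24.8 and 23.7 CPM in DMSO and at 41.2 and 40.5 CPM against 23.5 and 29.99 CPM at the low dose. XRCC2, one of the strand-exchange helpers, and the helicase WRN did so in 4 groups each. UBE2T, FANCG, RAD51C and NBN were lower in libraries 1 and 3 in 3 groups each. These genes were chosen after their values were seen, and the difference was not tested.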
